A study of Mus musculus with 6 samples.

Results

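The respiratory chain genes of the mouse fetal liver were taken by name from all protein-coding genes of the deposited table. The names were those starting with mt-, Ndufa, Ndufb, Ndufc, Ndufs, Ndufv, Uqcr, Atp5, Cox4i, Cox5, Cox6, Cox7 or Cox8, together with Sdha, Sdhb, Sdhc, Sdhd, Cyc1 and Cycs. They gave 106 of the 26014 genes. Of these, 13 lie on the mitochondrial genome and 93 in the nucleus. The nuclear members comprise 82 subunits of the complexes or the carrier cytochrome c, the supercomplex factor Cox7a2l, and 10 genes of assembly or coupling factors (Ndufaf1 to Ndufaf8, Atp5s and Atp5sl).

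The series compared untreated fetal livers at embryonic day 14.5 from wild-type embryos (WT, 3 libraries) with livers from embryos labelled as a knockout of the 3′ UTR of Gata1 (KO, 3 libraries). The stated aim concerned genes and pathways regulated during fetal erythropoiesis. The labels give neither the extent of the deleted UTR, the sex, nor whether livers were pooled. Nor do they state a separate embryo for each library, so a p-value here reflects spread between these samples that may be technical. The unit is FPKM: fragments counted on a gene, divided by its exon length in kilobases and scaled by the size of the library. Low values step by the worth of 1 fragment, and from these steps a library holds about 14800000 to 16200000 fragments.

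Gata1, the erythroid transcription factor whose UTR was targeted, measured 143, 142 and 166 FPKM in WT and 67.2, 67.7 and 68.2 FPKM in KO. No KO library reached the WT range (log2 fold change -1.13, limma, adjusted p = 0.000638), and fragments missing from a deleted UTR would lower this value too. The labels call the cells embryonic hepatocytes. Red cell markers summed to 115604 to 132231 FPKM in WT and 92171 to 100753 FPKM in KO, and 6 of the 9 fell. Hepatoblast markers summed to 404 to 2396 FPKM in WT and 1052 to 1438 FPKM in KO, and 0 of the 8 tested passed (limma, 0 at an unadjusted p under 0.05). The RNA was thus dominated by red cell transcripts. In such bulk RNA, fewer cells of a type and less RNA per cell cannot be told apart.

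The respiratory chain passes electrons from NADH through complex I, or from succinate through complex II, to ubiquinone, then through complex III and cytochrome c to complex IV, which reduces oxygen. Complexes I, III and IV pump protons across the inner mitochondrial membrane, and complex V, the ATP synthase, uses their return to make ATP. Apart from complex II, which is wholly nuclear, each complex combines proteins made inside the mitochondrion with proteins made from nuclear genes. Developing red cells need mitochondria for haem synthesis and clear them before they enter the circulation as mature cells.

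The mitochondrial genes spanned the widest range of levels of all members. The highest was mt-Co1, the catalytic subunit of complex IV, with a mean of 8974 FPKM over the 6 libraries. The next were mt-Cytb, the cytochrome b of complex III, with 3539 FPKM, and the complex I genes mt-Nd1 with 2207, mt-Nd2 with 1128, mt-Nd5 with 847 and mt-Nd4 with 802 FPKM. The complex I gene mt-Nd6, which is read from the other strand, had 105 FPKM. The 6 genes that lie side by side between mt-Co1 and mt-Nd4 were far lower. Mean FPKM was 27.5 for mt-Co2, 0.0504 for mt-Atp8, 11.6 for mt-Atp6, 17.7 for mt-Co3, 1.67 for mt-Nd3 and 0.641 for mt-Nd4l. These encode the other core subunits of complex IV, both mitochondrial subunits of complex V and a pair of complex I subunits.

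That stretch of the mitochondrial genome has a copy on chromosome 1, annotated as a row of unprocessed pseudogenes on the minus strand (GRCm38). Pieces of 30 bases from 2 gene and copy pairs are shown, since they differ in whether a fragment can be assigned to 1 place. Capitals mark letters that differ between gene and copy, so a pair in lower case throughout is identical.
mt-Co2, chrMT:7213-7242, plus strand: tctaccagctgtaatccttatcataattgc
Gm28661, chr1:24615336-24615365, minus strand: tctaccagctgtaatccttatcataattgc
mt-Co1, chrMT:6381-6410, plus strand: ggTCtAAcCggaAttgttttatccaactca
Gm29216, chr1:24616168-24616197, minus strand: ggATtGGcAggaTttgttttatccaactca

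Over the whole aligned length, the copy of mt-Co2 matched in all of 681 bases, that of mt-Atp6 in all of 678, that of mt-Co3 in all of 783 and that of mt-Nd4l in all of 294. The copy of mt-Nd3 had 1 mismatch in 345 bases. For mt-Co1 only 492 of the gene's 1545 bases have an annotated copy, with 6 mismatches, all within the piece shown. For mt-Nd4 the copy covers 876 of 1378 bases, with 0 mismatches. The share of each gene's 100-base words that also occur in another annotated transcript set the same genes apart. It was 99.5% for mt-Co2, 99.5% for mt-Atp6, 99.9% for mt-Co3, 97.6% for mt-Nd3 and 98.5% for mt-Nd4l. It was 60.8% for mt-Nd4, 30.8% for mt-Co1, 3.20% for mt-Nd2 and 0% for mt-Nd1, mt-Nd5, mt-Nd6 and mt-Cytb. The exception was mt-Atp8, which shared 0% with annotated transcripts but had a value above 0 in 1 library alone, where it stood for 1 fragment. It lies between mt-Co2 and mt-Atp6, and a gap without an annotated copy separates the copies of those genes on chromosome 1. Whether that gap holds a copy of mt-Atp8 was not tested, since only annotated transcripts were searched. The pseudogenes themselves had mean values of 13.8 FPKM (Gm28661), 22.9 FPKM (Gm10925, the copy of mt-Atp6), 17.0 FPKM (Gm28437, of mt-Co3), 1.40 FPKM (Gm28438, of mt-Nd3) and 1.04 FPKM (Gm10222, of mt-Nd4l). The sources used here do not give how fragments that match more than 1 place were counted, and the part this has in the low values was not tested. The levels of these 6 genes are therefore printed as deposited and are not read as levels of the mitochondrial transcripts. Those of mt-Nd4 and mt-Co1, with 60.8% and 30.8% of their words shared, are uncertain too.

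**Figure D1:**
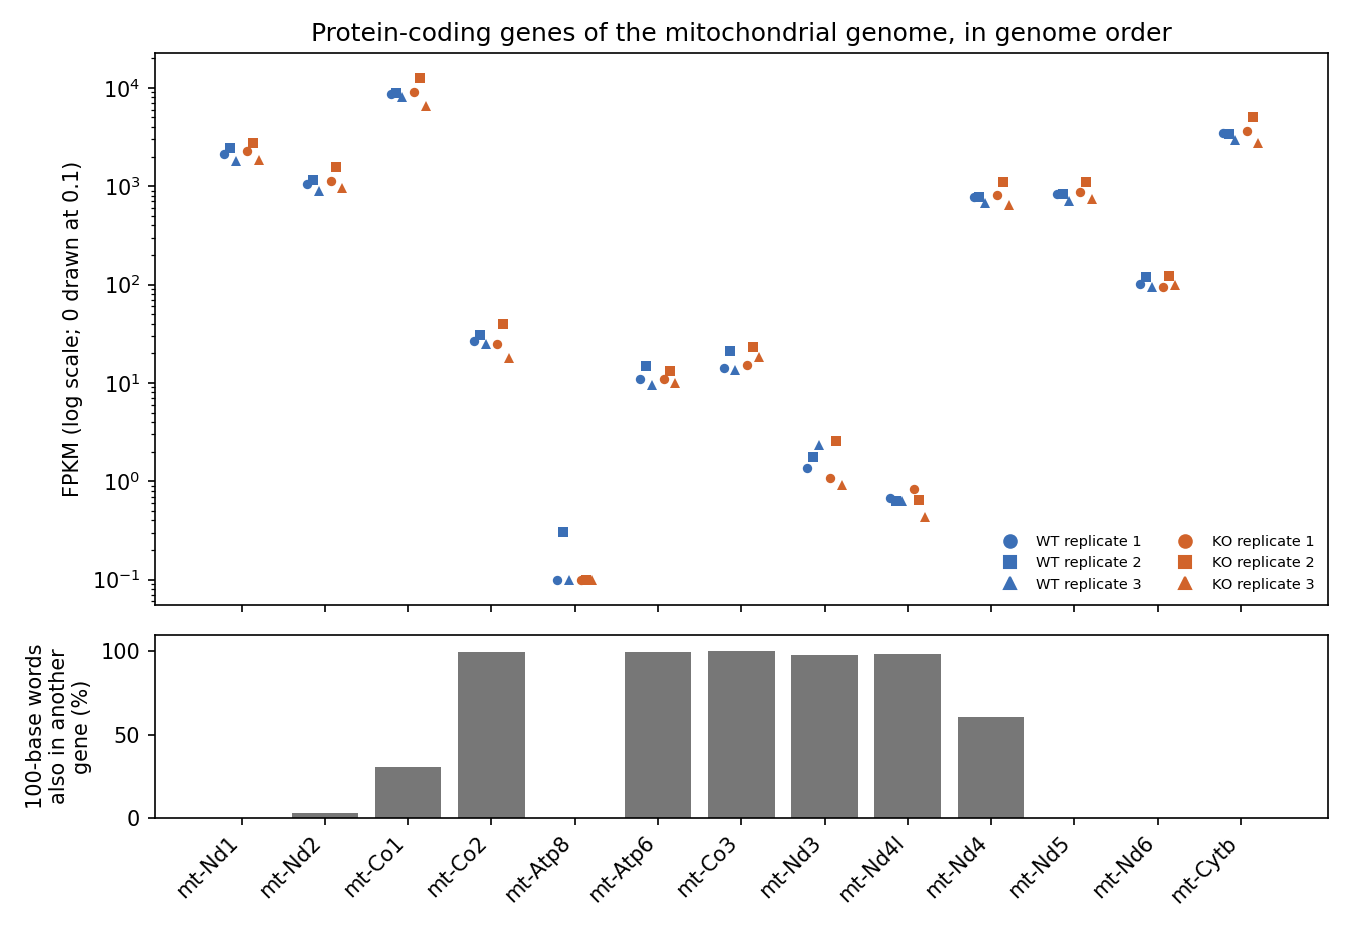
The upper panel plots FPKM on a log scale for the 13 mitochondrial protein-coding genes in genome order, 1 point per library, with values of 0 drawn at 0.1. The lower panel gives the percentage of each gene's 100-base words that occur in another annotated transcript. The 6 genes from mt-Co2 to mt-Nd4l sit at or below 39.6 FPKM, and 5 of them share nearly all of their words.

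No mitochondrial gene passed the test between KO and WT (limma on log2(FPKM + 1), adjusted p under 0.05), and 0 had an unadjusted p under 0.05. Over all genes tested 9.55% passed and 28.7% had an unadjusted p under 0.05. The 2 groups overlapped in each of the 11 tested. For the 7 outside the low stretch, log2 fold changes ran from -0.00077 to 0.21 with a median of 0.16, and 6 were positive. For the 4 tested genes of the stretch they ran from -0.21 (mt-Nd3) to 0.22 (mt-Co3) with a median of -0.05, and 1 was positive. For mt-Co1, FPKM were 8722, 8911 and 7980.0 in WT and 9056, 12567 and 6608 in KO (log2 fold change 0.09, SE 0.220, limma, adjusted p = 0.803). For mt-Cytb they were 3475, 3359 and 2955 in WT and 3601, 5094 and 2748 in KO (0.18, SE 0.212, limma, adjusted p = 0.602). For mt-Nd1 they were 2103, 2429.6 and 1794 in WT and 2290.3, 2766 and 1862 in KO (0.12, SE 0.168, limma, adjusted p = 0.662). In all of these, KO replicate 2 was the highest library of the 6, and KO replicate 3 was at or near the bottom.

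The order of the libraries was shared by most of the mitochondrial genes. KO replicate 2 was the highest library for 10 of the 11, and WT replicate 2 for the other. The lowest was WT replicate 3 for 5 genes, KO replicate 3 for 5 and KO replicate 1 for 1. The genes therefore do not count as separate observations of the knockout. The median coefficient of variation of the mitochondrial genes was 11.8% in WT and 25.7% in KO, against 5.60% and 3.25% for the 89 tested nuclear members.

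As deposited, the mitochondrial genes outweighed the nuclear ones in summed FPKM. Their FPKM added to 17128, 17673 and 15147 in WT and 17913, 24393 and 13709 in KO, with means of 16649 ± 1329 and 18672 ± 5382 (SD, n = 3 each). The nuclear subunits added to 5993, 6279.8 and 6475 FPKM in WT and 6341, 6342 and 6314 FPKM in KO, with means of 6249 ± 242 and 6333 ± 16.1. The KO mean was 112% of WT for the mitochondrial sum and 101% for the nuclear sum, and the groups overlapped in both. The KO libraries had nearly equal nuclear sums but spread from lowest to highest of all in the mitochondrial sum. The ratio of the mitochondrial to the nuclear sum, which does not depend on how libraries are scaled, was 2.86, 2.81 and 2.34 in WT and 2.82, 3.85 and 2.17 in KO. The mean log2 ratio differed by 0.11 (KO minus WT) with all libraries and by -0.10 without KO replicate 2, so the sign rests on 1 library. The mitochondrial share of all respiratory chain FPKM was 74.1, 73.8 and 70.1% in WT and 73.9, 79.4 and 68.5% in KO. The sizes of this ratio and share depend on the length that FPKM divides by, the merged exons. These equal the longest coding transcript for every mitochondrial gene. For many nuclear genes they exceed it, by a factor of 2.21 for Atp5b and 11.8 for Atp5l. Within the mitochondrial sum as deposited, mt-Co1 alone made up 48.2 to 52.7% in every library. That sum includes the low genes between mt-Co1 and mt-Nd4, whose values are not read as transcript levels, so these shares are uncertain.

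**Figure D2:**
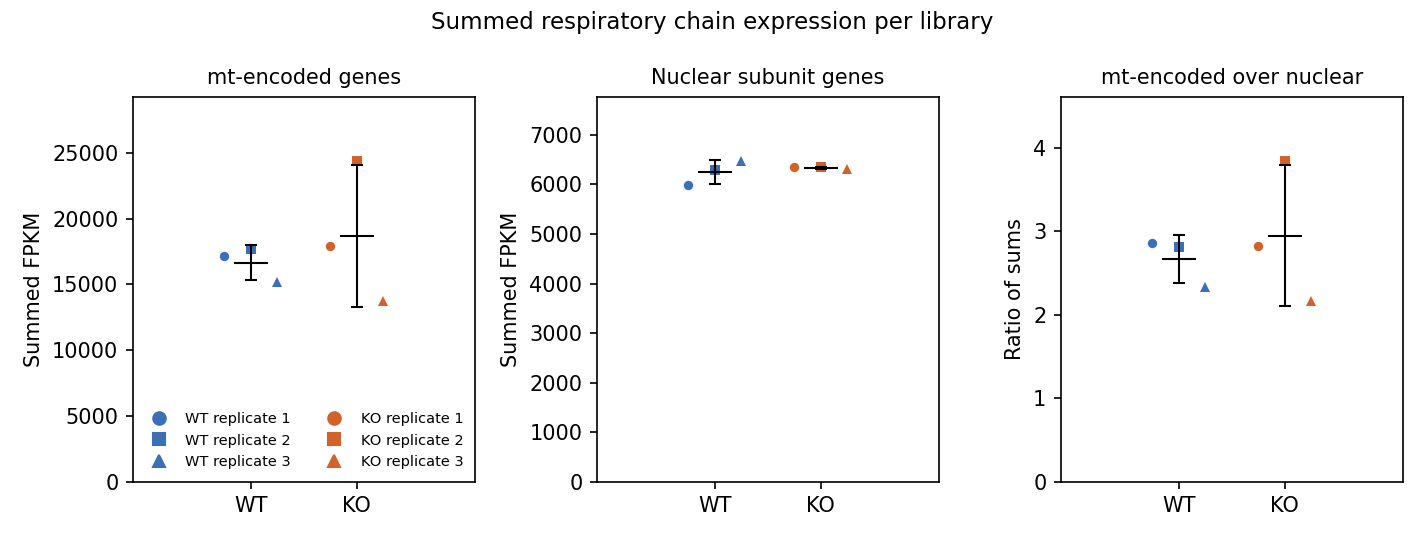
Summed FPKM of the 13 mitochondrial genes, summed FPKM of the 82 nuclear subunit genes, and the ratio of the sums, with 1 point per library and bars for the mean and SD (n = 3 per group). KO libraries lie between 6314 and 6342 in the nuclear sum but between 13709 and 24393 in the mitochondrial sum.

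The nuclear subunits with the highest levels were those of the catalytic head of the ATP synthase. The medians over tested subunits were 45.7 FPKM for complex I, 61.4 for complex II, 87.7 for complex III, 102 for complex IV and 55.5 for complex V. These were Atp5b, the catalytic beta subunit of the ATP synthase, with 491 FPKM and its partner Atp5a1, the alpha subunit, with 387 FPKM. In complex IV the highest were Cox8a with 333 and Cox6a1 with 329 FPKM, which did not differ beyond their spread between libraries. In complex III it was Cyc1, the haem-bearing cytochrome c1, with 167 FPKM and in complex I Ndufb9 with 155 FPKM. In complex II it was the membrane anchor Sdhd with 138 FPKM, against 33.9 FPKM for Sdhc, the other anchor. The lowest tested in each complex were Ndufab1, the mitochondrial acyl carrier protein, with 2.56 FPKM, Sdhc, Uqcrc1 with 22.2, Cox7a1 with 1.05 and Atp5l with 3.33 FPKM. Cytochrome c itself, Cycs, had 29.0 FPKM. Of the 100-base words of Atp5l 69.0% also occur in other annotated transcripts, with the processed pseudogene Gm10221 sharing the most, and of those of Cycs 24.7%, so both levels are uncertain.

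The exon length that FPKM divides by exceeds the transcript length for many genes. Low values fit whole fragments over the merged exons of all transcripts, and for Atp5l these are 6443 bases against 544 bases of its longest coding transcript. Over the transcript length its level would be 39.5 FPKM. By the same measure Atp5b would stand at 1085 FPKM, Atp5a1 at 454, Cox6a1 at 405, Atp5g3 at 403, Cox8a at 375 and Ndufa6 at 309.7 FPKM. The highest nuclear subunit would then be Ndufa6 in complex I, above Ndufb9 at 227 FPKM. In complex III it would be Uqcrh at 275 FPKM, above Cyc1 at 237 FPKM. The lowest nuclear subunit of complex V would be Atp5g1 rather than Atp5l. The catalytic head subunits alpha and beta stayed above the stalk subunits gamma (Atp5c1, 128 FPKM), delta (Atp5d, 126 FPKM) and epsilon (Atp5e, 216 FPKM) on this scale. The c subunit, the rotor ring, is made from 3 genes with the same mature protein. Over transcript length Atp5g3 had 403 FPKM, Atp5g2 102 and Atp5g1 28.7 FPKM, and over merged exons they had 134, 45.7 and 27.6 FPKM. The order of Atp5g2 and Atp5g1 rests on the length: the longest coding transcript of Atp5g1 has 4715 bases against 753 for Atp5g2, and in fragments Atp5g1 was higher, with 2073 against 1080.0 in WT replicate 1.

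**Figure D3:**
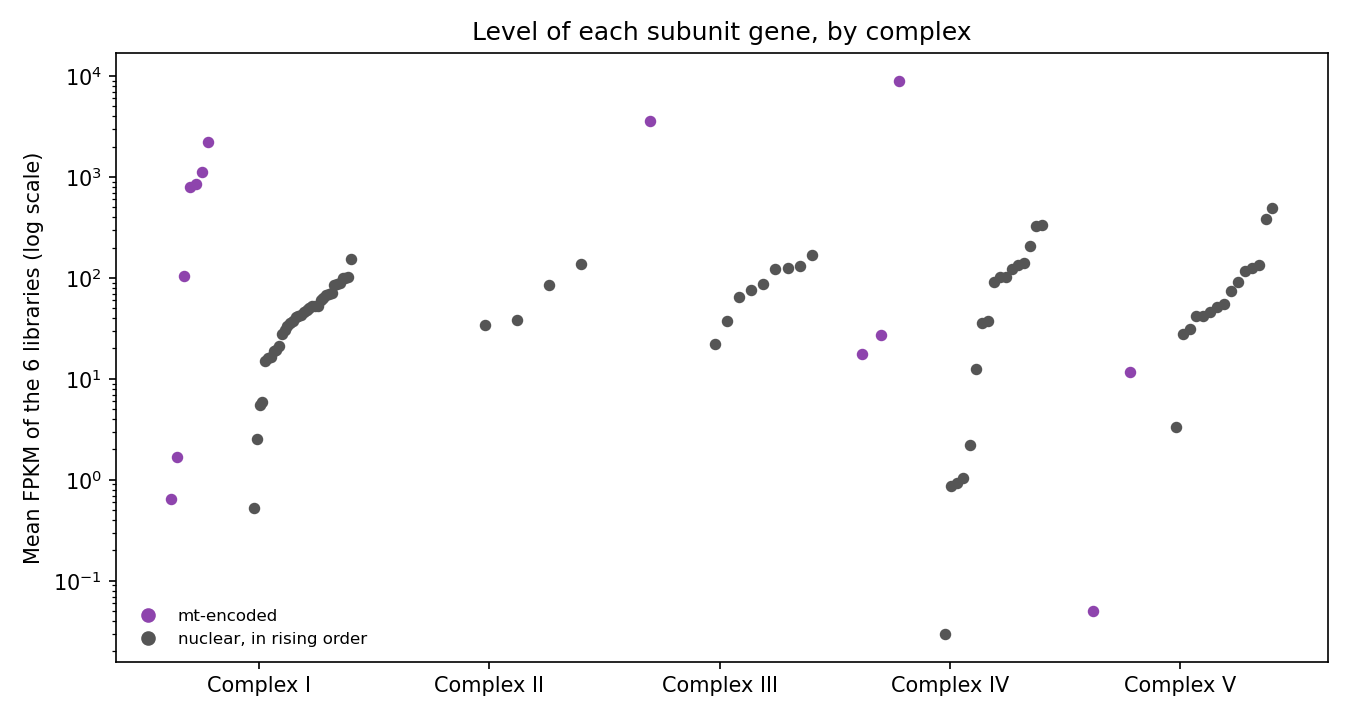
Mean FPKM over the 6 libraries on a log scale for each subunit gene, grouped by complex, with mitochondrial genes in purple and nuclear genes in grey in rising order. Nuclear subunits of complex I run from 0.531 to 155 FPKM, and the highest nuclear gene, Atp5b of complex V, has 491 FPKM.

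Most of the respiratory chain genes lay near their WT level in KO. Of the 106 members, 100 had a mean of at least 1 FPKM and were tested with limma on log2(FPKM + 1) together with all 11142 such genes. At an adjusted p under 0.05, Ndufa4l2 and Cox7a2l rose, Cox6b2 fell and 97 did not pass. The 3 called make up 3% of the members tested, while over all genes tested 9.55% were called, with 5.93% higher and 3.62% lower. Counted without adjustment, 11% of the members had a p under 0.05, against 28.7% of all genes tested. All KO libraries lay above all WT libraries for 18 members and below for 10, so that 28 of 100 did not overlap. The same was true of 35.6% of all genes tested, with 26.8% higher and 8.8% lower. The median log2 fold change was 0.03 over the members and 0.09 over all genes, and 61 members were positive and 39 negative, while 71.4% of all genes were positive. With median-of-ratios scaling the median of all genes moved by -0.10 to -0.01 and that of the members to -0.09, with 21 members positive. With equal summed FPKM they moved to 0.20 and 0.15, with 93 members positive. The members' median thus stood -0.06 from that of all genes as deposited, and -0.08 and -0.05 with these scalings. Signs of single members near 0 depend on the scaling.

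The size of change that the data allow was small for most nuclear members and wider for the mitochondrial genes. Folds here are of FPKM + 1, the scale of the fit, and for low genes they understate the fold of FPKM itself. The 95% intervals of the limma fit, not adjusted for their number, lay wholly within a 1.25-fold change either way for 75 of the 100 members, within 1.5-fold for 89 and within 2-fold for 97. Of the 89 tested nuclear members 74 lay within 1.25-fold and 85 within 1.5-fold, but of the 11 mitochondrial genes 1 and 4 did, and all 11 lay within 2-fold of FPKM + 1. For mt-Nd3, with a mean of 1.67 FPKM and an interval from -0.81 to 0.39, this does not bound the fold of FPKM at 2. Over all 11142 genes these counts were 4360, 9004 and 10481. Members sat at higher levels, with a median of 51.2 FPKM against 7.21 FPKM for all genes, and higher genes have narrower intervals. Among genes with a mean of at least 10 FPKM, 69 of 87 members and 2435 of 4569 genes lay within 1.25-fold. The 3 members whose intervals passed 2-fold were Ndufs3, Ndufa4l2 and Cox6b2.

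**Figure D4:**
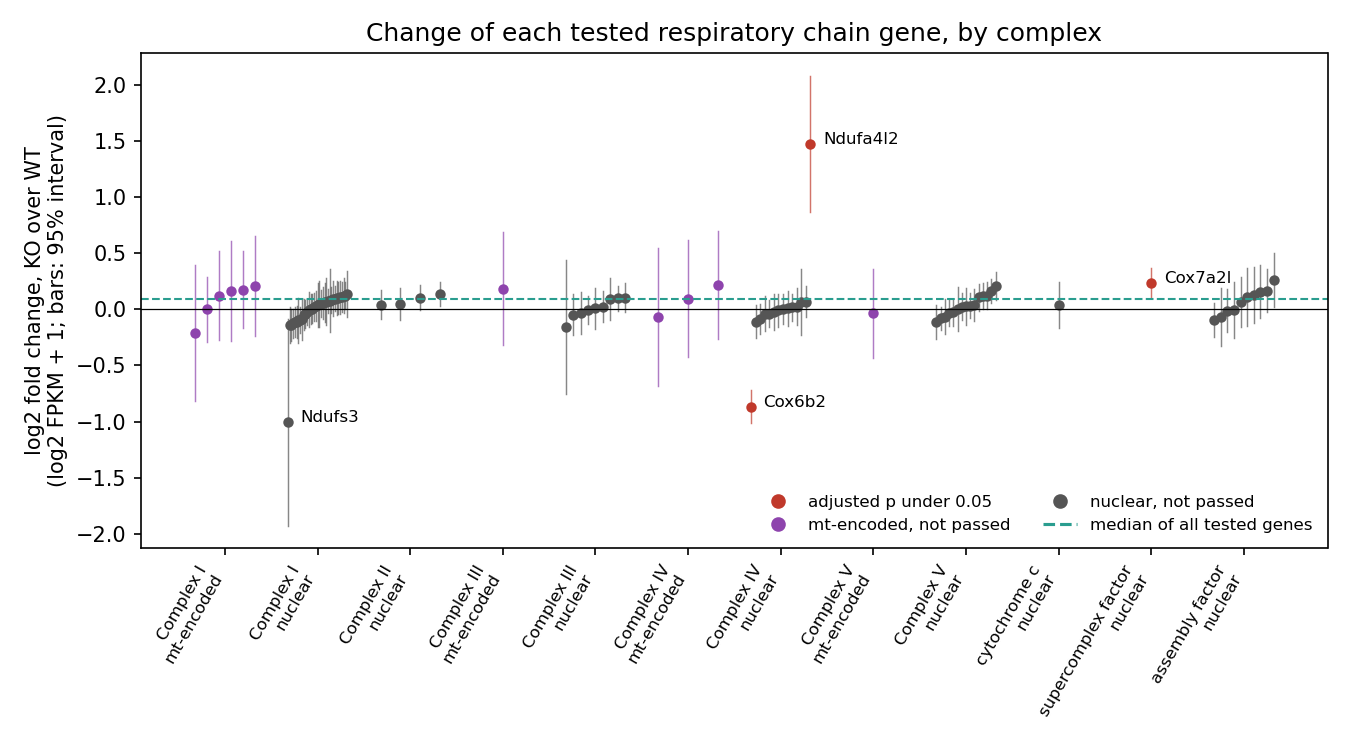
Log2 fold change of KO over WT on the log2(FPKM + 1) scale for each of the 100 tested members, grouped by complex and genome, with 95% intervals from limma not adjusted for their number. Cox6b2 at -0.87, Ndufa4l2 at 1.47 and Cox7a2l at 0.24 are in red, and the dashed line is the median of all genes tested, 0.09.

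By complex, the counts were as follows. Over all genes tested, for comparison, 9.55% passed and 28.7% had an unadjusted p under 0.05. KO lay wholly above WT in 26.8% of all genes tested and wholly below in 8.8%. In complex I, the entry point for NADH, 0 of 35 tested nuclear subunits passed in limma (3 at an unadjusted p under 0.05), and their median log2 fold change was 0.04, with 5 genes lying wholly above WT and 5 wholly below. Core subunits, which include those that carry the flavin and the iron-sulphur clusters, gave 4 positive and 3 negative fold changes. In complex II all 4 subunits were positive with a median of 0.08, and 0 passed (1 unadjusted). In complex III 0 of 9 nuclear subunits passed (0 unadjusted), with a median of 0.01. In complex IV 1 of 14 rose and 1 fell, with a median of -0.0049. In complex V 0 of 15 passed (3 unadjusted), 10 were positive and the median was 0.02. Among the 10 assembly and coupling factors 0 passed (1 unadjusted), with log2 fold changes from -0.10 to 0.26. Each of these signs is as deposited. With median-of-ratios scaling 21 of all 100 members were positive.

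As deposited, the summed levels of the nuclear subunits were also close to WT for most complexes. The KO mean was 99.99% of WT for complex I (1763 ± 63.5 FPKM in WT and 1763 ± 19.4 FPKM in KO), 106% for complex II, 102% for complex III and 97.1% for complex IV, with overlapping groups in each. For complex V the sums were 1612, 1685 and 1715 FPKM in WT and 1760.3, 1777 and 1764 FPKM in KO, and every KO library lay above every WT library. The means were 1671 ± 53.1 and 1767 ± 8.81 FPKM (SD, n = 3 each), a ratio of 1.06, which turned to 0.974 with median-of-ratios scaling. With that scaling the KO mean was below WT in each of the other complexes too, so how close the sums lie to WT depends on the scaling. WT replicate 1 was the lowest library for 45 of the 89 tested nuclear members. Its summed FPKM over all genes was 491620, against 400545 to 421672 in the other libraries. Its part in the sums was not tested, but the KO to WT ratio for complex V was 1.04 without it and up to 1.07 without any other single library.

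Cox6b2 was lower in KO, at 53.8% of the WT mean. It encodes an isoform of the Cox6b subunit of complex IV that is known from testis and sperm. The gene, ENSMUSG00000051811, lies at chr7:4751792-4753094 on the minus strand (GRCm38). It measured 45.3, 46.0 and 49.3 FPKM in WT and 26.6, 25.4 and 23.7 FPKM in KO, from 411 to 870 fragments per library. Every KO library lay far below every WT library. The means were 46.9 ± 2.11 and 25.2 ± 1.47 FPKM (SD, n = 3 each), with a log2 fold change of -0.87 (SE 0.0618, limma, adjusted p = 0.00121). The call held in all 6 fits that left out 1 library and in all 9 other alternatives, with adjusted p from 0.000727 to 0.0105 in limma.

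The ubiquitous isoform Cox6b1 was higher in level and did not pass. It measured 189.6, 200.4 and 224 FPKM in WT and 212, 206 and 205 FPKM in KO, with overlapping groups (log2 fold change 0.02, limma, adjusted p = 0.852). Of the 14 nuclear complex IV members tested, Cox6b2 was the one that fell. Its neighbour Kmt5c, a histone methyltransferase gene named here after its values were seen, lies at chr7:4740115-4747514 on the other strand. It measured 46.5, 42.8 and 53.5 FPKM in WT and 28.9, 28.7 and 28.2 FPKM in KO, again with no overlap (log2 fold change -0.71, limma, adjusted p = 0.00623). The annotated exons of the genes do not overlap. Whether both change through 1 cause was not tested. Red cell markers also fell, 6 of 9 with a median log2 fold change of -0.35, and their part in the Cox6b2 result was not tested.

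Ndufa4l2 rose from a low level. It is a paralog of the complex IV subunit Ndufa4 and is known as a gene that hypoxia switches on. The gene, ENSMUSG00000040280, lies at chr10:127514967-127517154 on the plus strand. Its values were 0.431, 0.845 and 0.687 FPKM in WT and 5.94, 2.67 and 2.75 FPKM in KO. They stood for 7, 15 and 12 fragments in WT and 105, 46 and 47 in KO. The groups did not overlap, and KO replicate 1 was well above the others. The KO mean of 3.78 ± 1.86 FPKM was 5.78 times the WT mean of 0.654 ± 0.209 FPKM, while on the log2(FPKM + 1) scale the change was 1.47 (SE 0.256, limma, adjusted p = 0.0208). The call was lost without WT replicate 1, WT replicate 3 or KO replicate 2 and with no filter on low genes, and with a mean of at least 5 FPKM required the gene was not tested. Adjusted p in limma ran up to 0.0629 over the alternatives.

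Megakaryocyte markers were also higher in KO. All 7 lay wholly higher and 6 passed, with sums of 262, 305 and 159.8 FPKM in WT and 723, 584 and 399.8 FPKM in KO. KO replicate 1 was highest for these sums and for Ndufa4l2. The lowest library was WT replicate 3 for the sums but WT replicate 1 for Ndufa4l2. Of 5 endothelial, 7 macrophage and 5 neutrophil markers tested, 0 passed (limma, with 1, 0 and 0 at an unadjusted p under 0.05). The part of any of these cell types in the Ndufa4l2 result was not tested. The last 32 bases of its exons overlap Shmt2, a mitochondrial serine enzyme gene on the opposite strand, and the sources used here do not give the strand setting of the counting. Shmt2 measured 109.7, 93.2 and 114 FPKM in WT and 121, 139 and 132 FPKM in KO (log2 fold change 0.31, limma, adjusted p = 0.0770). The partner Ndufa4 stood at 83.2, 97.2 and 90.5 FPKM in WT and 91.8, 88.2 and 91.8 FPKM in KO, and did not pass (limma, adjusted p = 0.954).

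Cox7a2l rose by a small amount. It encodes a protein related to the Cox7a subunits that helps complexes III and IV join into supercomplexes. The gene, ENSMUSG00000024248, lies at chr17:83501919-83514333 on the minus strand. It measured 83.0, 86.5 and 88.1 FPKM in WT and 95.7, 105 and 103 FPKM in KO, without overlap. The KO mean was 118% of WT, with a log2 fold change of 0.24 (SE 0.0546, limma, adjusted p = 0.0439). The call lies close to the threshold. It was lost in each of the 6 fits that left out 1 library and in 6 of the 9 other alternatives, with adjusted p up to 0.442 in limma. Cox7a2, the ubiquitous Cox7a subunit, measured 131, 142 and 147 FPKM in WT and 133, 132 and 129 FPKM in KO (log2 fold change -0.09, limma, adjusted p = 0.337).

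**Figure D5:**
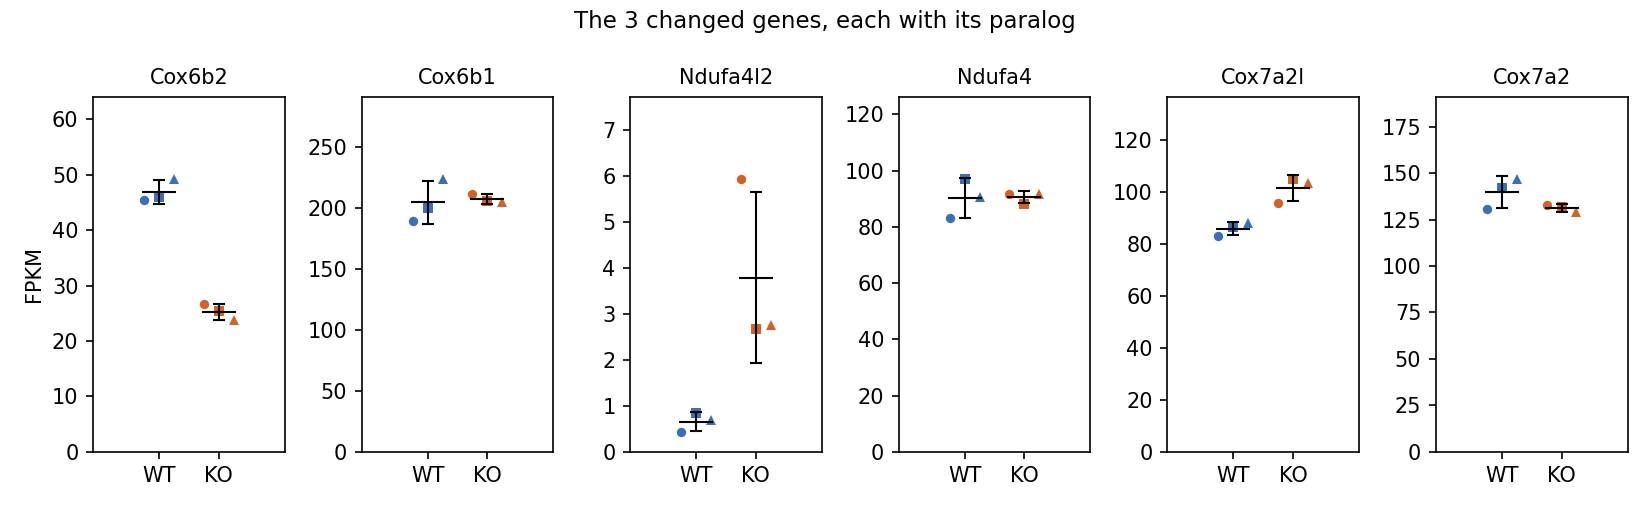
FPKM per library for the 3 members that passed the test, each beside its paralog, with bars for the mean and SD (n = 3 per group) and a separate axis from 0 in each panel. Cox6b2 lies at 23.7 to 26.6 in KO and 45.3 to 49.3 in WT, while Cox6b1 overlaps between groups.

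The isoforms of complex IV known from muscle or lung had low levels, and of these Cox8b was at the detection limit. For exons of 1 kb in all, 3 fragments correspond to 0.185 to 0.202 FPKM, a limit that covers counting error only. Cox4i2, the lung isoform, had means of 0.789 FPKM in WT and 0.934 FPKM in KO, and Cox6a2, of heart and skeletal muscle, 0.840 and 1.03 FPKM. Both were below the level needed for the test. Cox7a1, also of heart and skeletal muscle, had 0.995 ± 0.0673 FPKM in WT and 1.10 ± 0.279 FPKM in KO, and did not pass (limma, adjusted p = 0.757). These 3 stood for 7 to 19 fragments per library. Cox8b was listed at 0 in 5 libraries and stood for 1 fragment in KO replicate 3. The ubiquitous partners were at 138 and 140.3 FPKM for Cox4i1, 342 and 316 FPKM for Cox6a1 and 333 and 333 FPKM for Cox8a, and none passed. Muscle markers summed to at most 0.632 FPKM in any library.

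3 genes of complexes II and V lay short of the threshold, of which Atp5a1 and Sdha were picked after their values were seen. Atp5g2, 1 of the genes of the c subunit, measured 43.5, 43.0 and 40.5 FPKM in WT and 49.8, 50.3 and 46.9 FPKM in KO (log2 fold change 0.21, limma, adjusted p = 0.0579). With the filter raised to a mean of at least 5 FPKM it passed (limma, adjusted p = 0.0475). It passed in none of the other alternatives, and with median-of-ratios scaling its log2 fold change was 0.09 (limma, adjusted p = 0.426). Atp5a1 measured 358, 366 and 372 FPKM in WT and 404, 414 and 409 FPKM in KO (0.16, limma, adjusted p = 0.0693). Sdha, the flavoprotein of complex II, measured 79.3, 82.8 and 78.5 FPKM in WT and 87.5, 87.7 and 89.9 FPKM in KO (0.14, limma, adjusted p = 0.101). In each the groups did not overlap, and KO means were 110.2 to 116% of WT. The other c subunit genes went opposite ways, at 108% of WT for Atp5g3 and 94.3% for Atp5g1, and neither passed.

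Ndufs3, a core subunit of the peripheral arm of complex I, had the most negative fold change of all members but a wide error. It measured 11.8, 6.17 and 6.42 FPKM in WT and 3.69, 1.55 and 6.02 FPKM in KO. The groups did not overlap, but WT replicate 3 and KO replicate 3 were close together. The log2 fold change of -1.01 did not pass (SE 0.388, limma, adjusted p = 0.146). Of its 100-base words, 19.9% also occur in the processed pseudogene Gm12251, so its value is uncertain. At least 20% of the words, read on either strand, were shared in 8 of the 93 nuclear members (Atp5h, Atp5l, Atp5o, Cycs, Ndufa13, Ndufb4, Ndufb6 and Uqcrc2), so their values are uncertain too. Not all of this sharing is with copies elsewhere. The main sharing gene overlaps on the opposite strand for Ndufa13 (Tssk6), Ndufb6 (Smim27) and Uqcrc2 (Pdzd9). For Atp5o it is an overlapping entry of the same name. Uqcrc1, a structural core protein of complex III, also spread widely, from 16.1 FPKM in KO replicate 1 to 31.5 FPKM in KO replicate 3 (log2 fold change -0.16, limma, adjusted p = 0.704).

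Many promoters of the nuclear members hold a motif of NRF1, a transcription factor known to drive respiratory chain genes. The motif searched was GCGCNTGCGC on both strands, in windows of 250 bases before to 50 after the gene start from RefSeq (GRCm38.p6). Genes tested were matched to these windows by symbol alone, and members by gene identifier first and by symbol otherwise. Of the 93 nuclear members, 74 had a window. The motif was in 19 of these, or 25.7%, against 7.17% of 17491 genes with a promoter and 12.8% of the 7728 that were tested. A motif of ETS factors, ACTTCCGG, was in 5 members (6.76%, against 5.69% of all and 10.4% of those tested). The YY1 motif AANATGGCGGC was in 5 (6.76%, against 1.63% of all and 3.29% of those tested). These shares are descriptions without a test. A single match is printed for each complex, in the gene with the highest level among those with a match, to show how the motif sits. Capitals mark the match, which does not show binding.
Ndufa6, complex I, chr15:82354249-82354278, minus strand: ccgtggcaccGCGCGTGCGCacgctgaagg
Sdhd, complex II, chr9:50603909-50603938, minus strand: tcgctggggtGCGCACGCGCggtggcagcg
Uqcrc1, complex III, chr9:108936643-108936672, plus strand: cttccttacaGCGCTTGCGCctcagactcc
Cox6a1, complex IV, chr5:115349101-115349130, minus strand: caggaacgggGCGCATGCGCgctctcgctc
Atp5g3, complex V, chr2:73911295-73911324, minus strand: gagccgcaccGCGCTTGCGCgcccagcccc

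The windows of Cox6b2 and Cox7a2l held none of the 3 motifs, and that of Ndufa4l2 was not in the table. The 5 genes printed gave KO means of 109, 103, 93.0, 92.5 and 108% of WT, in the order shown, and none passed the test. The gene of NRF1 itself, Nrf1, was named after its values were seen. It measured 10.8, 10.4 and 11.6 FPKM in WT and 9.14, 9.43 and 9.73 FPKM in KO. The groups did not overlap, and Nrf1 did not pass (log2 fold change -0.19, limma, adjusted p = 0.0994). Pprc1, another regulator of nuclear respiratory genes, lay wholly higher in KO and did not pass either (log2 fold change 0.16). It too was named after its values were seen. Of the 8 such regulators tested, Nrf1 included, 5 were positive and 3 negative.

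Genes of the same pathway outside the name rule were also near WT. Of 87 tested, Uqcc2 rose and 86 did not pass, against 9.55% called over all genes. Of the 87, 73 or 83.9% were positive, against 71.4% of all genes, and with median-of-ratios scaling 39 of the 87 and 48.6% of all genes were. An unadjusted p under 0.05 was found for 27.6% of the 87 and for 28.7% of all genes. Uqcc2, an assembly factor of complex III, measured 34.6, 40.7 and 38.4 FPKM in WT and 46.9, 48.1 and 48.4 FPKM in KO (log2 fold change 0.33, limma, adjusted p = 0.0316). The groups did not overlap, but the call held in 2 of 6 fits without 1 library and in 5 of 9 others, and the count of genes called higher ran from 0 to 8 when a library was left out. The assembly factors of complexes III and IV, 21 tested including Uqcc2, had a median log2 fold change of 0.11 with 17 positive. The assembly factors of complexes I, II and V, 12 tested, were all positive with a median of 0.11, and 0 passed (limma, 3 at an unadjusted p under 0.05). Of 17 tested genes that maintain or transcribe mitochondrial DNA, 0 passed (4 unadjusted), with a median of 0.08. For ubiquinone synthesis 0 of 13 passed (4 unadjusted, median 0.09), and for the citric acid cycle 0 of 13 (3 unadjusted, median 0.03). For the regulators of nuclear respiratory genes 0 of 8 passed (2 unadjusted, median 0.06), and for the nucleotide and phosphate carriers 0 of 3 (1 unadjusted, median 0.09). These medians stand beside 0.09 over all genes tested.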

How the data were processed

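Libraries were made from TRIzol-extracted total RNA and read from both ends, per the labels' protocols. The values used are the authors' deposited FPKM, in a single table of all 6 libraries. Their aligner, counter, genome build, strand setting and handling of fragments with several matches: not given in the sources used here. Lines of spilled text (7) were left out and 24 date-like gene names were restored. Of the identifiers, 99.7% occur in GENCODE M21, and 89 of the 106 members have the same positions there, so coordinates are given as GRCm38. Over merged exons, 93.9 to 94.4% of the low values checked were whole fragments within 0.02.

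Differences were tested by limma (version 3.58.1, under R 4.3.3) with lmFit and a trended eBayes on log2(FPKM + 1), two-sided, over 11142 genes with a mean of at least 1 FPKM, without a replicate block. Benjamini-Hochberg adjustment ran over all of them, with a threshold of 0.05. This scale understates changes of low genes. An exact permutation test of 3 against 3 libraries cannot go below p = 0.1. The fit was also run on simulated counts with a single fixed dispersion and no shift shared by the genes of a library. No result here rests on that run.

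The members and lists were chosen with earlier results of these data known. Named were all mitochondrial genes, members past the threshold, the highest and lowest subunit per complex, the tissue isoforms with their partners, and up to 3 called genes per outside list. Ndufs3, Sdha, Atp5a1, Kmt5c and members named for their promoter or role were added after their values were seen. Sco2 and Pet117 were not analysed here. Sums and shares were described without a test. Alternatives varied the pseudocount, the filter, the scaling, the prior, the weights and the block, and left out each library. Tables were handled in Python 3.11.15 (pandas 2.3.3 and numpy 2.4.6), and figures were drawn with matplotlib 3.10.9.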

Additional observations from a re-analysis of the deposited data

How the results depend on the processing

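The call of Cox6b2 held under every alternative run, and no member turned to a call in the opposite direction. As reported, 2 members were higher and 1 lower, and the counts were the same with a pseudocount of 0.1, a robust prior and a mean of at least 5 FPKM. With that last filter Ndufa4l2 was too low to be tested, and Atp5g2 passed beside Cox7a2l (limma, adjusted p = 0.0475, against 0.0501 to 0.426 in its other alternatives that kept all libraries). The count of members called higher was 0 with no filter on low genes and 1 with median-of-ratios scaling, with equal summed FPKM, with equal summed FPKM outside mt- and globin genes, with the replicate block and with library weights. Leaving out 1 library gave 0 to 1 higher, and it was 0 without WT replicate 1, WT replicate 3 or KO replicate 2. For pathway genes outside the name rule the count called higher, 1 as reported, was 0 with no filter, with median-of-ratios scaling and with either equal-sum scaling, and 2 with a mean of at least 5 FPKM or with library weights. It ran from 0 to 8 when 1 library was left out, the 8 without WT replicate 2. The count called lower, 0 as reported, was 1 with median-of-ratios scaling and 0 to 1 when 1 library was left out. The labels give same-numbered libraries of the groups no more than a number in common. Their deviations from the group means had correlations of -0.0974, 0.0116 and 0.256, too few values to decide whether they were paired. With the replicate block 1 member was higher and 1 lower.

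Fold changes that changed sign belonged to genes that did not pass. With median-of-ratios scaling the log2 fold change was -0.011 for Atp5g3, -0.099 for Cox4i1, -0.095 for Cox6b1, -0.051 for Cox7b, -0.019 for Cyc1, -0.11 for Ndufa4, -0.039 for Ndufab1, -0.013 for Sdhc, -0.075 for Sdhd and -0.025 for mt-Co1. With equal summed FPKM it was 0.039 for Atp5g1, 0.030 for Atp5l, 0.014 for Cox6a1, 0.034 for Cox7a2, 0.12 for Cox8a, 0.080 for mt-Atp6, 0.050 for mt-Co2 and 0.12 for mt-Nd6. With equal sums outside mt- and globin genes it was 0.054 for Cox8a, 0.016 for mt-Atp6 and 0.053 for mt-Nd6. With library weights it was 0.028 for mt-Atp6, 0.041 for mt-Co2 and 0.037 for mt-Nd6. Leaving out 1 library gave -0.015 to 0.039 for Cox4i1, -0.031 to 0.090 for Cox6b1, -0.026 to 0.036 for Cox8a, -0.050 to 0.061 for Ndufa4, -0.013 to 0.091 for Ndufab1, -0.46 to 0.00064 for Uqcrc1, -0.16 to 0.13 for mt-Atp6, -0.14 to 0.32 for mt-Co1, -0.36 to 0.19 for mt-Co2, -0.049 to 0.40 for mt-Cytb, -0.019 to 0.27 for mt-Nd1, -0.042 to 0.35 for mt-Nd4 and -0.11 to 0.089 for mt-Nd6.

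With median-of-ratios scaling the KO to WT ratio of nuclear sums was 0.920 for complex I, 0.973 for complex II, 0.940 for complex III, 0.894 for complex IV and 0.974 for complex V. With equal sums outside mt- and globin genes it was 1.03 for complex I, 1.09 for complex II and 1.09 for complex V. The difference of the log2 ratio of mitochondrial over nuclear sums, 0.11 as reported, was 0.11 without mt-Atp8 and mt-Nd4l, 0.038 as a mean of log2 values and -0.10 to 0.31 when 1 library was left out. The cause of these differences was not tested. Few fragments stood behind Ndufa4l2, the muscle and lung isoforms of complex IV, mt-Atp8 and mt-Nd4l. For mt-Atp8 and mt-Nd4l the cause of the low counts was not tested. The limit of 3 fragments covers counting error only, while the limma intervals rest on the spread between libraries.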

Other observations

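The ribosomal RNA genes of the mitochondrial genome, which the name rule leaves out as not protein-coding, had negative fold changes. FPKM of mt-Rnr1 were 258, 242 and 171 in WT and 169, 188 and 137 in KO (log2 fold change -0.43, limma, adjusted p = 0.167). FPKM of mt-Rnr2 were 333, 346 and 265 in WT and 239, 277 and 226 in KO (-0.34, limma, adjusted p = 0.118). Neither passed, the groups overlapped in both, and a difference from the mitochondrial protein-coding genes was not tested. Within KO, replicate 2 was the highest and replicate 3 the lowest for both, as in the summed mitochondrial protein-coding genes.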
